A study of Mus musculus with 10 samples.

Results

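Microglial transcripts were followed in endothelial cells sorted from mouse brain, as 39 genes listed by symbol. Of these, 38 had a row among the 26264 genes of the expression table, and Slco2b1-ps was not analysed here. All 38 were kept at any level, and all 38 passed a filter on low values that was blind to diet, a mean of at least 0.1 TPM over all libraries (TPM, a level corrected for gene length that sums to an equal total in every library). The groups were C57BL6 mice given PLX5622 in their chow at 1200 ppm for 1 month, and C57BL6 mice kept on control diet equally long, each group being 3 males and 2 females. PLX5622 inhibits CSF1R, a receptor tyrosine kinase. Brains without meninges, cerebellum and olfactory bulbs were dissociated, and cells bearing CD31 on their surface were sorted for polyadenylated RNA sequencing. No age is stated for the mice, and every cell carried by the sort contributes to the library, so these are bulk samples.

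Microglia are the resident macrophages of the brain and depend on CSF1R signalling for survival. They sense nucleotides and chemokines through G protein-coupled receptors, signal through adaptors with immunoreceptor tyrosine-based activation motifs, and make the C1q complement chains. PU.1, encoded by Spi1, and IRF8 are transcription factors on which the microglial lineage rests. Several of these genes are shared with blood-derived cells, and some are transcribed in endothelium.

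The sort carried endothelial RNA at a steady level. Pecam1, which encodes CD31, stood at 1489 ± 42.6 TPM on PLX5622 and 1476 ± 27.2 TPM on control diet (SD, n = 5 each). Depth, from whole reads recovered from the deposited values, ran from 26435152 to 61540136 reads per library. In a fit of all 16587 tested genes 14 were called between the diets, 2 lower and 12 higher on PLX5622. Control female 1 stood apart from the other control libraries in the microglial transcripts, so results are given with and without it. Summed over 14 border macrophage markers, levels ran from 130 to 149 TPM on PLX5622 and from 134 to 154 TPM on control diet, and Stab1 and Dab2 made up most of that sum. Of these markers 10 were tested and 0 called. Ms4a7, Clec12a, Cd209f and Ccr1, which were too low to be tested, were at 0 in every PLX5622 library. On control diet they averaged only 0.110, 0.0220, 0.0460 and 0.143 TPM. Mrc1, the mannose receptor that defines border macrophages, was at 0.0808 ± 0.0785 TPM on PLX5622 and 0.507 ± 0.519 TPM on control diet (SD, n = 5 each, limma adjusted p = 0.623), and its part in the results was not tested. The summed levels of the neutrophil, B cell, and T and NK cell markers overlapped between the diets. The monocyte sum was almost wholly Fn1, and the other 8 monocyte markers together ran from 2.51 to 4.41 TPM on PLX5622 and from 2.22 to 6.58 TPM on control diet.

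The members were sorted by the mean level left on PLX5622, as a percent of the mean on control diet. At 10% or less, 17 members are called near absent, where 0.814% of all tested genes lay. Above 10 and under 50%, 11 members are called reduced, against 2.36% of all tested genes. The other 10, at 50% or more, are called retained. These classes were made from the levels themselves, so they are a description with no test. P2ry12 was the last member inside the near absent class, at 8.12%, and Hpgds the first outside it, at 10.5%. Ptprc, at 46.6%, and Sall1, at 57.7%, stood on either side of the upper bound.

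**Figure D1:**
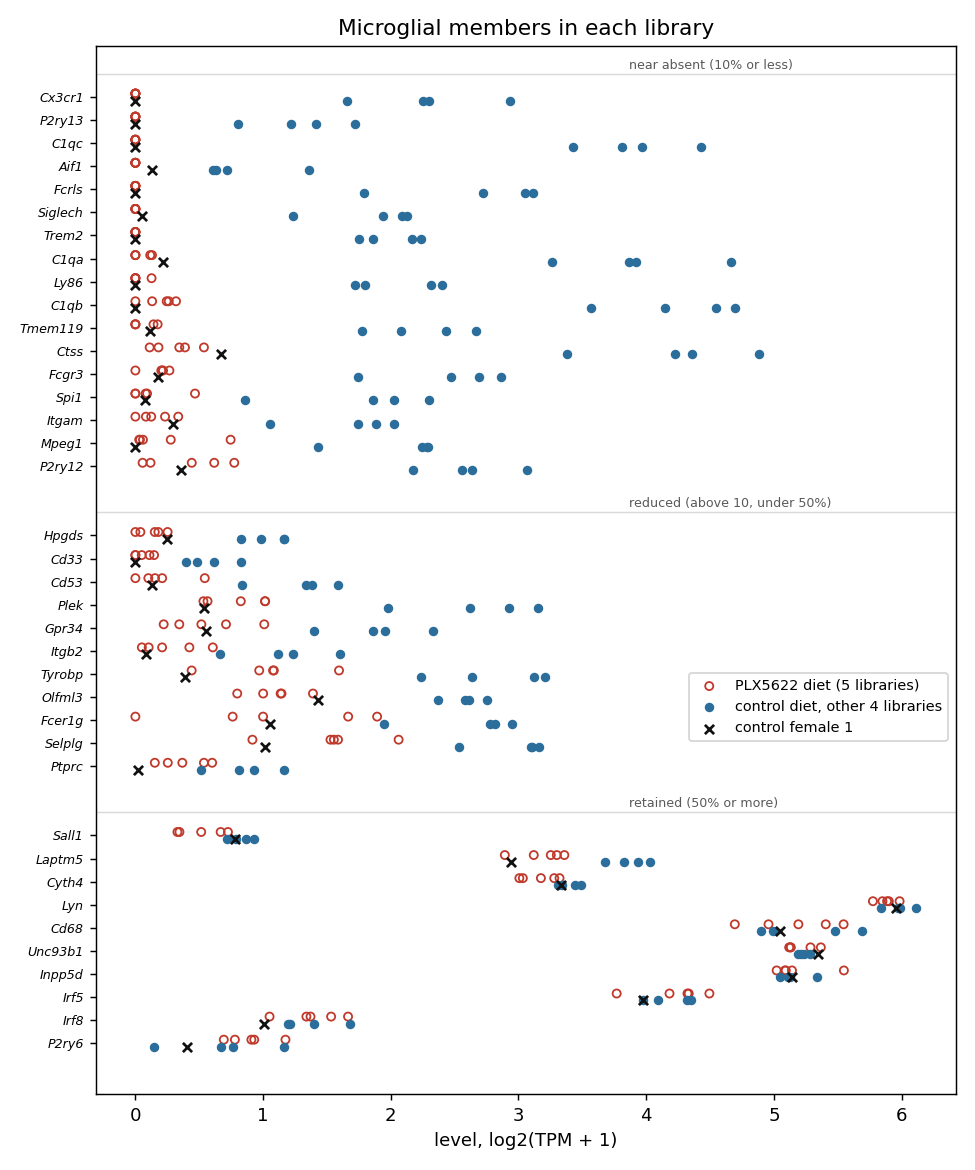
Level of each of 38 microglial members in each of 10 libraries, as log2(TPM + 1) on the x axis, with members in rows sorted within class by the percent left on PLX5622. Open red circles are the 5 PLX5622 libraries, blue points the other 4 control libraries and black crosses control female 1. In the near absent rows the PLX5622 libraries and control female 1 sit close to 0, and in the retained rows the diets overlap, apart from Laptm5, where the other 4 controls lie above every PLX5622 library.

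Stretches of RefSeq promoter sequence (build GRCm38.p6) are shown for near absent and retained members, because PU.1 is known to bind purine-rich sites of this kind. Each is the 250 bases before the annotated start on the gene's own strand, 5′ to 3′, with matches to GAGGAA, or to TTCCTC for the other strand, in capitals. Coordinates are those of RefSeq, not of the build used for the counts (mm39). Ctss (chr3:95526536-95526785, plus strand), C1qb (chr4:136886201-136886450, minus), C1qc (chr4:136892915-136893164, minus) and Cx3cr1 (chr9:120068297-120068546, minus) were near absent, and Cd68 (chr11:69666171-69666420, minus) was retained.
Ctss: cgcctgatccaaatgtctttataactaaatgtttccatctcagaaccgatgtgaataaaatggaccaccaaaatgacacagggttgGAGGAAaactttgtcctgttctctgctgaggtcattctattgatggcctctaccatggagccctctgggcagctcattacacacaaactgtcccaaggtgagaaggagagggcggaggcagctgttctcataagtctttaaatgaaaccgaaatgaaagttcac
C1qb: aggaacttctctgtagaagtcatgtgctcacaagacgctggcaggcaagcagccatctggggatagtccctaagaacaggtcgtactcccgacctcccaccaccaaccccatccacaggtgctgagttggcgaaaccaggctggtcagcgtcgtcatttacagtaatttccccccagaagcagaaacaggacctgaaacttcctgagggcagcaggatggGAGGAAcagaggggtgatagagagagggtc
C1qc: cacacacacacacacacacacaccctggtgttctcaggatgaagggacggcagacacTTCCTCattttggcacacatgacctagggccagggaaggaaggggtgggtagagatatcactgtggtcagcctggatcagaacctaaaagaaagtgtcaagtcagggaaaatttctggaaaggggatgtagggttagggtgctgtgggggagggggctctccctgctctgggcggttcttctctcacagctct
Cx3cr1: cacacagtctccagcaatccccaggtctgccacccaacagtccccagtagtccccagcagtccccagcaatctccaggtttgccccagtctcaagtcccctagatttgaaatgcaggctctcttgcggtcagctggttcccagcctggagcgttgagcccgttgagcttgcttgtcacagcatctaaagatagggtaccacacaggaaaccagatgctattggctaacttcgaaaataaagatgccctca
Cd68: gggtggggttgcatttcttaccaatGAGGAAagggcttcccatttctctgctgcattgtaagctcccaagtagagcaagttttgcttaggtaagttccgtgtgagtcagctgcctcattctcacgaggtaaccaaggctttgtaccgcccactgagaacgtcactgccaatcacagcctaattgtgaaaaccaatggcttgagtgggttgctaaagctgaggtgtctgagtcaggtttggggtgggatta
RefSeq promoters were matched for 28 of the 38 members, giving 33 windows of 250 bases before and 50 after a start. A match on either strand was present in 11 of 15 windows of near absent members, 5 of 8 of reduced members and 4 of 10 of retained members. Of all 32851 windows of this length, 28.3% held one. Some genes have several windows, and counted by gene a match was present for 10 of 14 near absent, 5 of 7 reduced and 4 of 7 retained members, against 31.3% of all genes. Cx3cr1 was without a match in its window, while Cd68, a retained member, had one on each strand, 1 of them within the stretch shown. These are letter matches and not measured binding sites.

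Surface receptors made up 11 of the members, of which 7 were near absent on PLX5622. Cx3cr1, the receptor for fractalkine, was at 0 TPM in all 5 PLX5622 libraries. In the control libraries it was at 2.15, 3.78 and 3.93 TPM in males 1 to 3, 0 in female 1 and 6.66 in female 2. All PLX5622 libraries were thus at 0, and control female 1 was too. With 0 reads on PLX5622 and 840 on control diet, Cx3cr1 was at least 172-fold lower by the exact counting interval, allowing for depth. Taking 3 reads over the whole group as the limit, with the control count held fixed, gave 212-fold. The nucleotide receptor gene P2ry13, with 214 control reads, was at least 43.6-fold lower by the exact interval (54.1-fold at 3 reads). The scavenger-receptor-like Fcrls, with 618, was at least 127-fold lower (156-fold at 3 reads). Siglech, a sialic acid-binding lectin, and Trem2, a lipid-sensing receptor, also had no read in any PLX5622 library. By the exact interval they were at least 78.1-fold and 41.1-fold lower (96.5-fold and 51.0-fold at 3 reads). The limits at 3 reads leave out counting error on control diet. The exact intervals, here and below, cover counting error on each diet and nothing else.

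P2ry12, the ADP receptor that guides microglial processes, left a trace in every PLX5622 library. It was at 0.0858, 0.534 and 0.358 TPM in PLX5622 males and 0.710 and 0.0400 in the females of that diet. The control males held 3.51, 4.87 and 7.40 TPM, control female 1 held 0.278 and control female 2 held 5.22. Control female 1 thus lay within the range of the PLX5622 libraries, and the other controls above it. Pooled over libraries, 46 reads on PLX5622 and 725 on control diet left 8.37% (95% counting interval 6.07 to 11.3%). Tmem119, a microglial membrane protein, was at 0 to 0.128 TPM on PLX5622 and at 2.42 to 5.37 TPM on control diet apart from control female 1 at 0.0838.

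Gpr34, a lysophospholipid receptor, and Cd33, a sialic acid-binding inhibitory lectin, were reduced. Cd33 held 6 reads on PLX5622 and 78 on control diet, and control female 1 had none. Gpr34 ran from 0.166 to 1.01 TPM on PLX5622, and on control diet from 1.63 to 4.02 TPM apart from control female 1 at 0.469. Selplg, the selectin ligand PSGL-1, kept more. It was at 1.94, 0.888 and 2.00 TPM in PLX5622 males and 3.17 and 1.88 in the females of that diet, against 4.79, 7.93 and 7.63 in control males, 1.02 in control female 1 and 7.58 in control female 2. P2ry6, a receptor for UDP, was the member with the highest percent left, 147%, from 83 reads on PLX5622 and 80 on control diet. Its levels overlapped widely, at 0.616 to 1.26 TPM on PLX5622 and 0.109 to 1.24 TPM on control diet.

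The 3 chains of C1q, the recognition unit of the classical complement pathway, were near absent together. C1qc was at 0 TPM in all 5 PLX5622 libraries, and at 9.75, 13 and 20.5 TPM in control males, 0 in control female 1 and 14.6 in control female 2. C1qa was at 0 TPM in the 3 PLX5622 males and at 0.0839 and 0.0944 in the PLX5622 females, from 1 read each. Its control levels were 8.59, 13.6 and 24.3 TPM in males, 0.164 in female 1 and 14.1 in female 2. C1qb was at 0.199, 0.0952 and 0 TPM in PLX5622 males and at 0.247 and 0.185 in the females of that diet. In control libraries it was at 10.9, 16.7 and 24.9 TPM in males, 0 in female 1 and 22.4 in female 2. Every PLX5622 library lay far below the other 4 controls for all chains, and control female 1 lay close to the PLX5622 libraries. In the other 4 controls the chains stood close to each other, with C1qa at 0.631 to 0.978 and C1qc at 0.651 to 0.898 times the TPM of C1qb.

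Adaptors and signalling proteins were spread over all classes. Ly86, the MD-1 partner of RP105, had 1 read over the PLX5622 libraries and 187 over the control libraries. Fcgr3, an activating Fc receptor, was at 0 to 0.203 TPM on PLX5622 and 0.131 TPM in control female 1, with 2.35 to 6.26 TPM in the other controls. Tyrobp, the DAP12 adaptor through which TREM2 signals, was reduced and not near absent. It was at 0.958, 2.02 and 1.12 TPM in PLX5622 males and 1.11 and 0.357 in the females of that diet, against 3.71, 7.69 and 8.22 in control males, 0.311 in control female 1 and 5.20 in control female 2. Trem2 had no reads on PLX5622 while its adaptor gene kept 32 reads over the diet. The gene of the other adaptor of this kind, Fcer1g, left 27.2% of pooled reads (19.0 to 38.0%), and Plek, the protein kinase C substrate pleckstrin, left 16.5% (13.9 to 19.4%). Cd53, a leukocyte tetraspanin, left 13% (8.06 to 19.9%).

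Laptm5, a lysosomal membrane protein of haematopoietic cells, was retained at 66.4%. It was at 8.85, 9.26 and 7.69 TPM in PLX5622 males and 8.53 and 6.43 in the females of that diet, against 11.8, 14.3 and 13.2 in control males, 6.70 in control female 1 and 15.4 in control female 2. The 4 other controls lay above every PLX5622 library, and control female 1 among them. Lyn, Inpp5d and Cyth4 were retained as well, and their diets overlapped. Lyn, a Src-family kinase, averaged 57.9 ± 3.11 TPM on PLX5622 and 61.9 ± 4.34 TPM on control diet (SD, n = 5 each). Inpp5d, the SHIP1 phosphatase, averaged 35.5 ± 5.82 TPM on PLX5622 and 34.6 ± 2.77 TPM on control diet. Cyth4, a guanine nucleotide exchange factor of the cytohesin family, averaged 8.0 ± 0.878 TPM on PLX5622 and 9.44 ± 0.583 TPM on control diet.

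Among lysosomal and phagocytic genes, Ctss and Mpeg1 were near absent and Cd68 and Unc93b1 retained. Ctss, the cysteine protease cathepsin S, was at 0.0806, 0.309 and 0.269 TPM in PLX5622 males and 0.134 and 0.451 in the females of that diet. Its control levels were 9.41, 17.7 and 28.6 TPM in males, 0.589 in female 1 and 19.5 in female 2. Mpeg1, the pore-forming perforin-2, held 41 reads over the PLX5622 libraries, 28 of them in PLX5622 male 2, and 805 over the control libraries. Cd68, a lysosomal glycoprotein of phagocytes, was at 24.9, 35.6 and 41.4 TPM in PLX5622 males and 30.1 and 45.7 in the females of that diet, against 30.9, 28.8 and 50.7 in control males and 32.2 and 43.6 in control females. Unc93b1, the chaperone of endosomal Toll-like receptors, averaged 36.0 ± 2.96 TPM on PLX5622 and 37.1 ± 1.63 TPM on control diet (SD, n = 5 each). Neither of these retained genes parted the diets, and control female 1 lay among the other libraries for both.

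Of the 4 transcription factors only Spi1 was near absent. It was at 0, 0.0655 and 0.0571 TPM in PLX5622 males and at 0 and 0.382 in the females of that diet, against 0.813, 2.63 and 3.91 in control males, 0.0554 in control female 1 and 3.07 in control female 2. PLX5622 female 2 held 6 of the 8 reads of its diet. Sall1, a zinc-finger factor of microglial identity, was at 0.653, 0.589 and 0.256 TPM in PLX5622 males and 0.270 and 0.429 in the females of that diet, against 0.642, 0.900 and 0.824 in control males and 0.716 and 0.729 in control females. The diets overlapped for Sall1 only through male 1 of each, and control female 1, at 92.6% of the mean of the other controls, was not low. The interferon regulatory factors Irf5 and Irf8 stood at 107% and 111% of control, with 17.9 ± 3.33 and 1.65 ± 0.414 TPM on PLX5622 and 16.8 ± 2.26 and 1.49 ± 0.455 TPM on control diet (SD, n = 5 each).

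Leukocyte integrins and CD45 came last. Itgam, the CD11b chain, was near absent, at 0 to 0.262 TPM on PLX5622, against 0.228 TPM in control female 1 and 1.08 to 3.07 TPM in the other controls. Its partner Itgb2, the CD18 chain shared by leukocyte integrins, left 21.9% of pooled reads (14.8 to 31.6%). Ptprc, which encodes CD45, left 44.8% (34.9 to 57.1%), from 90 reads on PLX5622 and 265 on control diet. Control female 1 held 1 read of Ptprc, below every PLX5622 library. Among the others, Aif1, the calcium-binding protein IBA1, had no read on PLX5622 and 40 on control diet. It was at least 7.85-fold lower by the exact counting interval (10.1-fold at 3 reads). That interval allowed up to 12.7% left, above the 10% bound of the near absent class. Hpgds, a prostaglandin D synthase, was at 0 to 0.191 TPM on PLX5622, 0.189 TPM in control female 1 and 0.772 to 1.24 TPM in the other controls. Olfml3, a secreted olfactomedin-like protein, was at 1.2, 1.21 and 0.738 TPM in PLX5622 males and 1.62 and 1.00 in the females of that diet, against 4.18, 5.74 and 5.12 in control males, 1.69 in control female 1 and 5.0 in control female 2. It was the single reduced member for which all 5 control libraries lay above all 5 PLX5622 libraries.

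**Figure D2:**
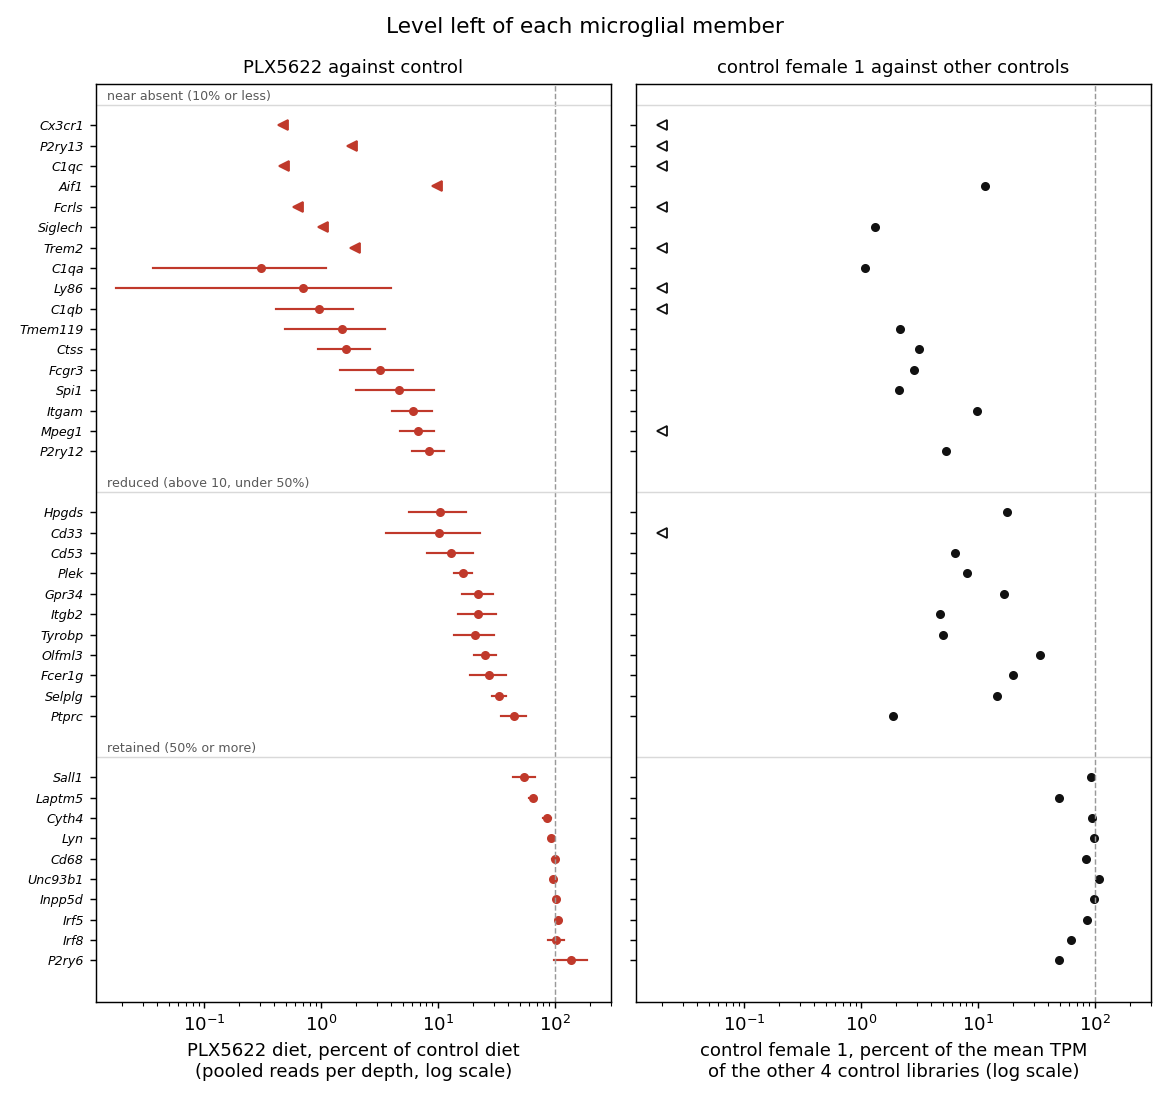
Left, percent of the control level left on PLX5622 for each member, from reads pooled over 5 libraries per diet and scaled to depth, with 95% counting intervals on a log axis, where triangles mark the limit allowed by 3 reads for members with no read. Right, control female 1 as a percent of the mean TPM of the other 4 control libraries on a log axis, where open triangles at the left edge mark members with no read in that library. In control female 1 the near absent and reduced members lie at 33.8% or below, and the retained members at 49.0% or above.

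Control female 1 was measured on control diet according to its label, yet most of the near absent and reduced members stood there at the level of the PLX5622 libraries. It lay below the other 4 controls for 17 of 17 near absent, 11 of 11 reduced and 3 of 10 retained members, where 20.4% of all tested genes did so. It was at 10% or less of the mean of those controls for 16 near absent and 6 reduced members, against 4.54% of all tested genes. For 12 near absent and 8 reduced members it lay within the range of the PLX5622 libraries, while for C1qa, Aif1, Siglech, Ctss and Olfml3 it lay above that range. In control female 1 Aif1 and Siglech held only 1 read each, and C1qa 2. The near absent sum was 1.66 TPM in control female 1, against 62.6 to 149 TPM in the other controls, and it was 0.656 to 1.93 TPM in the PLX5622 libraries. Its depth, 31917899 reads, and its endothelial marker sum, 30312 TPM, lay within the range of the other libraries. Its summed levels of neutrophil, T and NK cell, B cell, platelet, pericyte and neuron markers, and of the monocyte markers other than Fn1, were the lowest of the 5 controls, for example 338 TPM for pericytes against 394 to 499 TPM in the other controls. Its astrocyte and smooth muscle marker sums were the highest of the 5 controls, at 162 TPM against 115 to 149 TPM and at 342.4 TPM against 215 to 341.9 TPM. The summed border macrophage, oligodendrocyte and endothelial markers lay within the range of the other controls. The cause of this was not tested.

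Genes called higher on PLX5622 gave control female 1 another position. In the fit that left it out, 13 genes in neither microglial list were called higher on PLX5622, among them Sqle, Insig1 and Angpt2. For the 24 members called lower in that fit, control female 1 lay nearer to the mean of PLX5622 in 24. This largely follows from the choice of that library, which was singled out for low values of these members. Of the 8 genes called lower that were in neither microglial list, it lay nearer to PLX5622 in 5 and to the other controls in 3. In all 13 of the genes called higher, control female 1 lay below every PLX5622 library, and in 12 it lay nearer to the mean of the other controls than to that of PLX5622, with Uqcc3 the exception. Sqle, squalene epoxidase, ran from 20.7 to 33 TPM on PLX5622, against 16.0 TPM in control female 1 and 13.3 to 15 TPM in the other controls. Angpt2, the vascular growth factor angiopoietin-2, ran from 25.6 to 36.4 TPM on PLX5622, against 15.6 TPM in control female 1 and 14.9 to 19.7 TPM in the other controls.

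**Figure D3:**
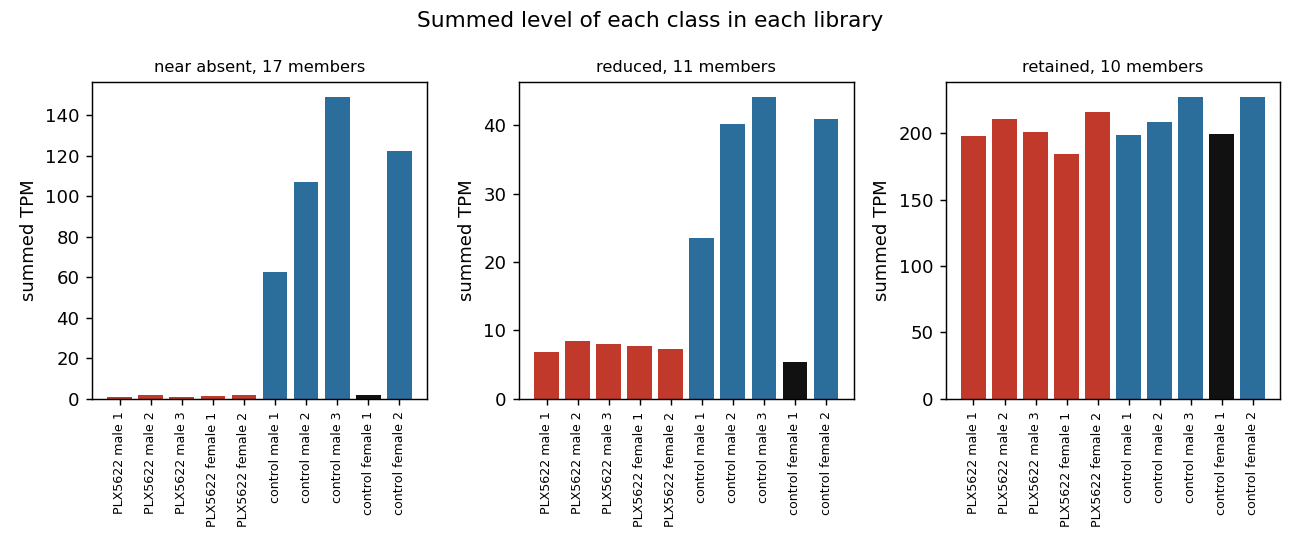
Summed TPM of near absent (17), reduced (11) and retained (10) members in each library, with PLX5622 libraries in red, control libraries in blue and control female 1 in black, each panel starting at 0. The near absent sum is under 2 TPM in every PLX5622 library and in control female 1, and the retained sum lies between 185 and 227 TPM in all 10.

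What remained of the members in the PLX5622 libraries was mostly the retained genes, whose class was made from the level left there. The largest of these by mean on PLX5622 were Lyn (57.9 TPM), Unc93b1 (36.0 TPM), Inpp5d (35.5 TPM) and Cd68 (35.5 TPM). The near absent sum averaged 1.39 ± 0.521 TPM on PLX5622 and 88.6 ± 57.8 TPM on control diet (SD, n = 5 each), or 110 ± 36.2 TPM over the other 4 controls. The reduced sum averaged 7.65 ± 0.619 TPM on PLX5622 and 30.8 ± 16.3 TPM on control diet, and the retained sum 202 ± 12.1 TPM on PLX5622 and 212 ± 14.1 TPM on control diet. Retained members thus held 95.3 to 96.3% of the summed level of the list in PLX5622 libraries and 96.6% in control female 1, against 54.1 to 69.8% in the other controls. The 165 reads of near absent members on PLX5622 were spread over all 5 libraries, with 10 in male 1, 53 in male 2, 24 in male 3 and 39 in each female. Fewer microglia in the sort and less RNA per cell cannot be told apart in bulk libraries, nor do they show which cells held the reads that were left.

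The other 4 control libraries differed among themselves in how much microglial RNA they carried. Control male 1 was lowest for 16 of 17 near absent members, at a median of 52.1% of the mean of these 4 libraries. Control male 3 was highest for 8 of them, at a median of 122%, control female 2 for 5, at 114%, and control male 2 for 4, at 97.2%. As a share of the near absent sum, C1qb was at 15.6 to 18.3% and Ctss at 15 to 19.2% in these libraries. Trem2, at 1.59 to 4.2%, varied most in its share, by a factor of 2.64.

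Tested over all genes, no member was called between the diets with all 10 libraries (limma on log2(TPM + 1), adjusted p of at least 0.133), where 0.0121% of the tested genes were called lower and 0.0723% higher. At an unadjusted limma p under 0.05 there were 29 of 38 members, against 7.95% of all tested genes, and 0 of 36 tested members passed with limma's voom on recovered reads, which called 0.0492% of genes lower and 0.0984% higher (26 members, and 7.75% of genes, at an unadjusted p under 0.05). Of the 38 fold changes 34 were below 0, with a median of -1.15, against -0.01 over all tested genes. The authors' deposited table, from DESeq2 on all libraries, called 20 of 38 members lower and none higher, where 0.329% of its 19474 genes were lower and 0.267% higher. In the authors' deposited table, Ctss was at a log2 fold change of -5.91 ± 0.88 (SE, DESeq2 adjusted p = 2.99e-08) and C1qa at -8.32 ± 1.40 (adjusted p = 4.32e-06). Among near absent and reduced members, Tyrobp, Spi1, Mpeg1, Selplg, Itgb2, Cd33, Fcer1g and Ptprc did not pass there (DESeq2 adjusted p 0.0587 to 0.876).

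Leaving out each library in turn was planned, but control female 1 is singled out for the values of these members, so the calls without it depend on that choice and are no independent test. Without control female 1, 24 of 38 members fell and none rose, where 0.259% of the tested genes were lower and 0.0784% higher. These were 16 of 17 near absent, 8 of 11 reduced and 0 of 10 retained members, a split that largely restates the classes, which rest on the same levels. The 38 had a median log2 fold change of -1.5, against -0.02 over all tested genes. At an unadjusted p under 0.05 there were 30 of 38, against 7.95% of all tested genes. By role, those that fell were 9 of 11 surface receptors, 3 of 3 C1q chains, 5 of 10 adaptors and signalling proteins, 2 of 4 lysosomal and phagocytic genes, 1 of 4 transcription factors, 2 of the 3 genes for integrin chains and CD45, and 2 of the 3 others. C1qb fell by 4.09 ± 0.21 on the log2 scale (SE, limma adjusted p = 2.51e-05), C1qc by 3.91 ± 0.19 (2.51e-05) and Ctss by 3.92 ± 0.26 (0.000133). Cx3cr1 fell by 2.34 ± 0.20 (limma adjusted p = 0.000521), P2ry12 by 2.21 ± 0.22 (0.00144) and Spi1 by 1.67 ± 0.26 (0.0271). In the reduced class Olfml3 fell by 1.5 ± 0.15 (limma adjusted p = 0.00158), Plek by 1.88 ± 0.24 (0.00884) and Tyrobp by 1.71 ± 0.24 (0.0157). Adding 1 to the TPM shrinks the fold changes of genes at low levels. Of the 20 members that the authors' deposited table called, 19 were among these 24, and Aif1 was not (limma adjusted p = 0.111). With voom on recovered reads, an alternative chosen after seeing the data, 22 of 36 members fell without control female 1, 21 of them shared with the limma fit, where 0.288% of genes were lower (28 members, and 7.83% of genes, at an unadjusted p under 0.05).

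**Figure D4:**
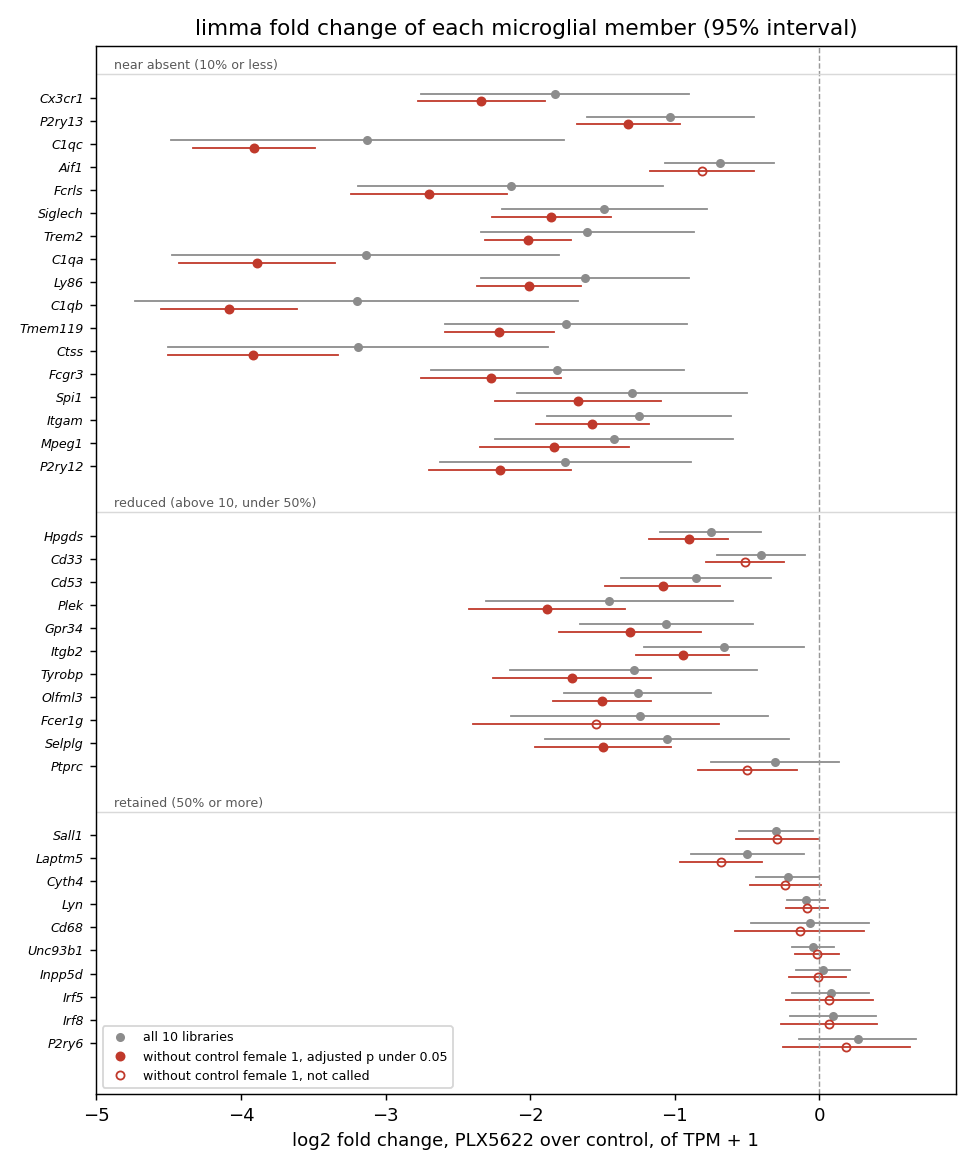
Log2 fold change of TPM + 1, PLX5622 over control, with 95% intervals from limma for each member. Grey points use all 10 libraries, and red points leave out control female 1, filled where the adjusted p is under 0.05. Leaving out that library narrows the intervals of near absent and reduced members, of which 24 are filled, and leaves the retained members open.

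Retained members did not pass in either fit, and their intervals bound the change. Without control female 1, Inpp5d was at -0.01 on the log2 scale (95% interval -0.21 to 0.19), Unc93b1 at -0.01 (-0.17 to 0.14), Lyn at -0.09 (-0.23 to 0.06) and Cd68 at -0.14 (-0.59 to 0.31). Irf5 was at 0.07 (-0.23 to 0.37), Irf8 at 0.06 (-0.27 to 0.40) and P2ry6 at 0.19 (-0.25 to 0.62). The sign of Inpp5d and Cd68 turned when single libraries were left out. Laptm5 was at -0.68 (-0.96 to -0.40), not called by limma (adjusted p = 0.0788) and called by voom on recovered reads without control female 1 (adjusted p = 0.023). Sall1, at -0.29 (-0.58 to -0.01), and Cyth4, at -0.23 (-0.48 to 0.01), were called by neither.

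All PLX5622 libraries lay below all control libraries for 4 of 17 near absent members, C1qa, Aif1, Siglech and Ctss, and for Olfml3, where 1.09% of all tested genes did so. Against the other 4 controls this held for 17 near absent members, 10 reduced members and Laptm5, where 2.06% of all tested genes did so. Ptprc was the reduced member that overlapped. In control female 1, Aif1 and Siglech held 1 read each, C1qa 2, Ctss 9 and Olfml3 33. The separation of Aif1, Siglech and C1qa from that library thus rested on very few reads.

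No member was called for sex. In the limma fit of all 10 libraries 0 of 38 members were called between females and males (smallest adjusted p = 0.89, 2 members and 5.57% of genes at an unadjusted p under 0.05), where 0.0663% of tested genes were called. The difference in the response to the diet between the sexes was called for 0 of 38 members and 0% of tested genes (0 members and 2.71% of tested genes at an unadjusted limma p under 0.05). Voom on recovered reads called 0 of 36 members in each, with 16 members and 5.78% of genes for sex, and 0 members and 1.95% of genes for the interaction, at an unadjusted p under 0.05. Control female 1 is 1 of 2 control females, so the value of the females rests on it. The median female minus male log2 difference of the members was -0.27 with all 10 libraries and 0.04 without control female 1, and without control female 2 the interaction called C1qb and C1qc.

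A list of 50 other microglial genes was also read. Of 48 tested, 2 fell with all 10 libraries, among them Rgs10, and 11 fell without control female 1, and none rose in either fit. Its median log2 fold change was -0.39 with all libraries and -0.52 without control female 1. Csf1r, the receptor that PLX5622 blocks, was at 0.173 ± 0.184 TPM on PLX5622 and 10.8 ± 7.70 TPM on control diet (SD, n = 5 each), with 0.0689 TPM in control female 1. Rgs10, a regulator of G protein signalling, was at 1.66 ± 0.383 TPM on PLX5622 and 6.48 ± 2.06 TPM on control diet, a log2 fold change of -1.46 (limma adjusted p = 0.0227). In control female 1 Rgs10 was at 4.37 TPM, above every PLX5622 library (1.15 to 2.08 TPM) and beside control female 2 at 4.28 TPM. Of the 11 genes that fell without control female 1, it lay nearer to the mean of PLX5622 in 9 and to that of the other controls in 2, Rgs10 among them. Entpd1, the ectonucleotidase CD39, stood at 107 TPM on PLX5622 and 124 TPM on control diet, Mertk, a phagocytic receptor kinase, at 85.6 TPM on PLX5622 and 87.5 TPM on control diet, and Vsir, an inhibitory immune receptor, at 57.8 TPM on PLX5622 and 69.2 TPM on control diet. None of these 3 was called by limma with or without control female 1 (adjusted p of at least 0.286). In this list 11 genes were at 10% or less of control and 19 at 50% or more, out of 48.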

How the data were processed

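The authors deposited TPM for 26264 genes in 10 libraries of polyadenylated RNA. The kit keeps no strand information, per the labels' protocols. Reads were aligned with STAR 2.7.10a and counted with featureCounts of Subread 2.0.1 on mm39, per the submitters' processing notes. The authors also deposited a DESeq2 1.32.0 table of 19474 genes, with a log2 fold change, its standard error and a statistic (scores), a mean normalized count (score), and p-values; its model formula is not stated there. Without strand, reads from overlapping or antisense genes cannot be told apart.

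Whole reads were recovered from TPM and the authors' mean counts, for the 19474 genes of both tables; 100% of values were whole within 0.05 reads. They give depth, pooled counts with exact (Clopper-Pearson) 95% intervals, and voom fits. TPM itself keeps no depth.

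Members were tested two-sided with a linear model of sex plus diet on log2(TPM + 1) (limma 3.58.1, R 4.3.3, variance trend on), with Benjamini-Hochberg adjustment over all 16587 genes with a mean of at least 0.1 TPM, at a threshold of 0.05. The model was tested on simulated data with independent normal noise, where changes were placed only in genes at higher levels. That test does not cover members near 0 or an outlying library. Tables were made with Python 3.11.15, numpy 2.4.6, pandas 2.3.3 and scipy 1.17.1. The titles call the replicates biological. All members are named; of other genes, those fixed by a rule (1 is not reported here), and Mrc1, Sqle, Insig1, Angpt2, Uqcc3, Rgs10, Stab1, Dab2 and Fn1 after their values were seen. The members, lists and tests were chosen with earlier results of these data known. Alternatives changed the filter, pseudocount, scaling, covariates, pairing and kind of value, and left out each library.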

Additional observations from a re-analysis of the deposited data

Results flagged for a closer look

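In 4 of 76 sets of 5 libraries (38 members on each diet), 1 library lay far from the nearest of the others by Dixon's test. For normally distributed values chance alone gives about 1 in 20. The PLX5622 sets of 7 members were at 0 throughout and could not be flagged, and most flagged sets held few reads. That rate is therefore only a rough guide here. Fcgr3 was at 0 TPM in PLX5622 female 1, against 0.151 to 0.203 TPM in the other PLX5622 libraries, which held 2 or 3 reads each. Ly86 was at 0.0918 TPM in PLX5622 male 3, from 1 read, and at 0 in the others of its diet. Spi1 was at 0.382 TPM in PLX5622 female 2, from 6 reads, against 0 to 0.0655 TPM in the others. Inpp5d was at 45.8 TPM in PLX5622 female 2, from 2214 reads, against 31.5 to 34.3 TPM in the other PLX5622 libraries.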

How the results depend on the processing

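No member was called with all 10 libraries under any setting that kept them all, and the 14 genes called between the diets became 7 with no filter, 4 with the replicate block, 23 with voom on all genes, 2 to 56 with single libraries left out and 61 with voom without control female 1. Members called lower numbered 0 to 24 with single libraries left out, 24 without control female 1 and 0 without any other, and 22 with voom without it. The median member log2 fold change, -1.15, was -0.36 over the 14 members with at least 1 TPM in at least 5 libraries, -2.15 with a pseudocount of 0.1, -2.55 with voom at a mean of at least 10 reads, -2.70 with voom on all genes, -3.09 with voom without control female 1, and -1.50 to -0.92 with single libraries left out. Near absent members, 17 with a bound of 10%, numbered 14 at 5% and 21 at 20%, 19 on medians, 17 on pooled reads, and 17 to 20 with single libraries left out. For sex by diet, no member was called with all 10 libraries or with any single male left out. Leaving out a female leaves 1 female on its diet, so interaction calls there are not read. Over 732 member values under the alternatives, 680 kept direction and call, 46 became called and 6 reversed. Unc93b1 was 0.0068 with voom without control female 1, the log2 fold change of Cd68 ran from -0.162 to 0.0764 with single libraries left out (0.0508 without PLX5622 male 1 and 0.0188 without PLX5622 female 1), and that of Inpp5d from -0.053 to 0.0893 (-0.011 without control female 1). The cause of these changes was not tested. Same-numbered males' deviations correlated at 0.12, 0.02 and 0.17, and those of the 2 female pairs at 0.12. The 2 female values are equal by construction, and libraries of unlike number were not compared. Whether the numbers pair the samples therefore cannot be decided from these values. The replicate block called 0 members. Members with few reads, such as Aif1 with 40 on control diet, are limited by depth.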

Other observations

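Without control female 1, limma called 8 genes lower on PLX5622 that were in neither microglial list; they are named here after their values were seen. Il1a, which encodes the cytokine interleukin-1 alpha, fell by 3.19 ± 0.23 on the log2 scale (SE, limma adjusted p = 0.000193), with 0 to 0.184 TPM on PLX5622, 0 in control female 1 and 4.71 to 12.9 TPM in the other controls. Nlrp3, an inflammasome sensor, fell by 1.40 ± 0.20 (limma adjusted p = 0.0146) and Gpr84, a receptor for medium-chain fatty acids, by 0.77 ± 0.11 (0.0186). Bcl2a1b, an anti-apoptotic BCL2 relative with near-identical copies, was at 0 in every PLX5622 library, at 0.349 TPM in control female 1 and at 1.49 to 3.52 TPM in the other controls.

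The other 4 were Abcg1, a sterol exporter, Pmepa1, a regulator of TGF-beta signalling, and the small nucleolar RNAs Snord88a and Snord16a. Abcg1 was at 15.6 TPM in control female 1, among the other controls (15.1 to 17.3 TPM), and at 6.73 to 14.1 TPM on PLX5622. Pmepa1 was at 39.3 to 46.1 TPM on PLX5622, against 51.3 TPM in control female 1 and 48.4 to 58.2 TPM in the other controls. Short nucleolar RNAs lie within other genes, so their values in unstranded libraries are uncertain.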
